A study of Mus musculus with 16 samples.

Results

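The creatine kinase genes Ckm, Ckb, Ckmt1 and Ckmt2 and the myoglobin gene Mb were followed across RNA immunoprecipitates of C2C12 cells. These are 5 of the 16590 genes named on the array, and every probe with one of their symbols was taken, which gave 7 of 25697 probes: 1 each for Ckm, Ckb and Ckmt1, and 2 each for Ckmt2 and Mb. C2C12 is a mouse myoblast line, here a single line, whose cells stop dividing and form multinucleate myotubes in low serum. Cytoplasmic extracts from cells kept in differentiation medium (DM, with horse serum) or in growth medium (GM, with fetal bovine serum) were incubated with beads carrying an antibody to MYF5, a myogenic helix-loop-helix transcription factor, or carrying control IgG. The precipitated RNA was copied with an oligo-dT primer, amplified and hybridised to Illumina mouse bead arrays. The groups were DM with anti-MYF5, DM with IgG, GM with anti-MYF5 and GM with IgG, with 4 arrays each, and nothing in the labels says that replicates were separate cultures. P-values therefore measure the spread between these samples, which may be technical. RNA of the extracts before precipitation was not analysed here, so every level below is a level in a precipitate.

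Creatine kinases move a phosphate group between ATP and creatine, so that phosphocreatine can restore ATP where it is used quickly. Ckm encodes the cytosolic muscle subunit, which also sits at the M-band of the sarcomere, and Ckb the cytosolic subunit best known from brain and from embryonic muscle. Ckmt2 encodes the mitochondrial enzyme of striated muscle and Ckmt1 the ubiquitous mitochondrial enzyme, while myoglobin is the haem protein that stores oxygen and helps it diffuse in heart and oxidative muscle fibres.

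The labelled cell type was checked first. All 9 myotube marker genes that could be tested were higher in DM than in GM in both precipitates, with summed signals of 65650 to 88390 in DM with anti-MYF5, 106300 to 120900 in DM with IgG, 6372 to 10420 in GM with anti-MYF5 and 8801 to 11010 in GM with IgG. Over all tested probes 27.7% were called higher in DM with anti-MYF5 and 28.7% with IgG. Among the 9 genes, Mymk, Tnnt3 and Tnni1 were detected on no GM array and Actc1 on 1. They could be tested only through their DM arrays and had to differ, so nothing is read from the count. Of 3 tested myoblast genes (Myod1, Itga7 and Des), 3 were higher in DM than in GM with anti-MYF5 and 2 with IgG, while Pax7 was never detected. Of the markers of other cell types, the cardiac Myl7 and Tnni3, the smooth muscle Myh11 and Cnn1, the neuronal Snap25, Syt1 and Nefl, the erythroid Alas2, Epb42 and Slc4a1, and the adipocyte Adipoq, Plin1, Cidec and Fabp4 were never detected. Of the markers of these cell types that could be tested, Myh6 (log2 change -1.69) and Smtn (log2 change -1.20) were called lower with anti-MYF5 than with IgG in DM, Mbp was called higher (log2 change 0.89), and Nppb, Lmod1, Stmn2, Hba-a1 and Lep were not called. Some of them also moved between media, in both directions. Hba-a1 had mean signals of 59.2 in DM with anti-MYF5 and 178 in GM with anti-MYF5, and of 78 in DM with IgG and 532 in GM with IgG, and in GM its log2 change of anti-MYF5 over IgG was -2.30. Smtn was higher in DM (log2 change 2.33 with anti-MYF5 and 3.25 with IgG), Stmn2 was lower (-1.59 with anti-MYF5 and -1.63 with IgG), and so was Nppb (-1.45 with anti-MYF5 and -1.75 with IgG), while Myh6 and Lmod1 were detected in DM but on no GM array. The part of these genes in the results below was not tested. Mean signal per array was 323.7 to 581.4, and 46.4% to 50.9% of probes were detected on an array at a detection p-value under 0.05. Arrays of the same group correlated at r of 0.986 to 0.998 over the normalized log2 values of all 25697 probes, detected or not, and arrays of different groups at 0.915 to 0.985.

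The stretches of 250 bases before the annotated transcription starts of the members detected in DM are shown because their RNAs were all higher in DM than in GM. They come from RefSeq (GRCm38.p6) and are read 5′ to 3′ on the gene's strand. Capitals mark matches, on either strand, to the E-box CANNTG, the motif class bound by myogenic helix-loop-helix factors, to TATAA, or to the MEF2 consensus. These motifs were chosen after the sequences had been seen. The windows are chr7:19410844-19411093 (+) for Ckm, chr12:111672339-111672588 (-) for Ckb, chr13:91876886-91877135 (-) for Ckmt2 and chr15:77022728-77022977 (-) for Mb.
Ckm: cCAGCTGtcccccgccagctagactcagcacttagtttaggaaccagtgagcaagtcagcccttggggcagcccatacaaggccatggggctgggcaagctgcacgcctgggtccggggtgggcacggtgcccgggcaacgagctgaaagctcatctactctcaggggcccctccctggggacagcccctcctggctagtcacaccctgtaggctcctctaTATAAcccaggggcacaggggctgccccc
Ckb: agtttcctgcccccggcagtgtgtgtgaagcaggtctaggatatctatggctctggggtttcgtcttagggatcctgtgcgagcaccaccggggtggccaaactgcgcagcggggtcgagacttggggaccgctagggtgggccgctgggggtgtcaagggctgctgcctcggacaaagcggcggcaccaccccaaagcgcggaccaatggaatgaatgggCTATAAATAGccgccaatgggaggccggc
Ckmt2: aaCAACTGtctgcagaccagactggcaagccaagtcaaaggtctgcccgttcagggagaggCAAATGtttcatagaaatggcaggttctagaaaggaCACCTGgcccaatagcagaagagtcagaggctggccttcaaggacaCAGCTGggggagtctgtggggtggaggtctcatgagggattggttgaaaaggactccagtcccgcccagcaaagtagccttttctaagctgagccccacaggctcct
Mb: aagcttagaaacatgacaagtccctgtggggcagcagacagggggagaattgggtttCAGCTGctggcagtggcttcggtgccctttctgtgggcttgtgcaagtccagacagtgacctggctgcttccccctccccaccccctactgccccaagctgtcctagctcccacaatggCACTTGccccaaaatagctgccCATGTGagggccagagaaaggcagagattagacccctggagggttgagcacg

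The Ckm window holds 1 E-box, at -249 from the start, and TATAA at -29. In the Ckb window TATAA at -28 lies inside a match to the MEF2 consensus at -29, and the window holds 0 E-boxes. The Ckmt2 window holds 4 E-boxes and no TATAA. RefSeq lists 3 starts for Mb, and the arrays do not tell which is used. The window shown for Mb holds 3 E-boxes, a second one that overlaps it holds 2, and the third, farther upstream, also holds 2. Both Ckmt1 windows hold 0 E-boxes. Over all 32851 promoter windows of the same length, 66.2% hold an E-box, 22.8% hold TATAA and 2.92% hold the MEF2 consensus. These matches describe letters only, and no binding was measured.

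The muscle subunit Ckm was detected on all 8 DM arrays and on none of the 8 GM arrays. Its signals, which are intensities in arbitrary units, were 185, 143, 129.9 and 205 in DM with anti-MYF5, 365, 303, 355 and 357 in DM with IgG, 57.9, 61.3, 57.8 and 53.5 in GM with anti-MYF5, and 71.1, 72.6, 59.1 and 61.7 in GM with IgG (replicates 1 to 4). All DM arrays stood above all GM arrays, and every anti-MYF5 array in DM lay below every IgG array. The mean signal was 165.5 ± 35.1 in DM with anti-MYF5 and 344.6 ± 28.3 in DM with IgG (SD, n = 4 each).

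The brain-type subunit Ckb was detected on all 16 arrays. Its signals were 3631, 2951, 2469 and 3735 in DM with anti-MYF5 and 7568, 6134, 6654 and 8222 in DM with IgG. In growth medium they were 1894, 2029.8, 1381 and 2291 with anti-MYF5 and 2535, 3072, 3229 and 3474 with IgG. The DM arrays with IgG were the highest, and the anti-MYF5 arrays lay below the IgG arrays of the same medium without overlap. On the normalized log2 scale its mean level was 11.68 in DM with anti-MYF5, 12.75 in DM with IgG, 10.66 in GM with anti-MYF5 and 11.70 in GM with IgG. DM with anti-MYF5 and GM with IgG, neighbours in the order of levels, differed by 0.02, within their spread (exact two-sided permutation p = 0.971), and the other neighbouring groups did not overlap. Ckb was thus the only creatine kinase whose RNA was measured in both media.

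The mitochondrial kinase Ckmt2 was detected on all 8 DM arrays and on no GM array by both of its probes, close to the background. With ILMN_2698052 the signals were 83.4, 75.4, 67.7 and 82.4 in DM with anti-MYF5, against 162, 94.3, 103 and 127 in DM with IgG. With ILMN_2817864 they were 89.5, 71.1, 64.7 and 84.3 in DM with anti-MYF5, against 133, 113, 111 and 136 in DM with IgG. Both probes placed every anti-MYF5 array below every IgG array. Signals in GM were 59.7 to 67.4 with anti-MYF5 and 57.8 to 68.8 with IgG for ILMN_2698052, and 48.4 to 57.2 with anti-MYF5 and 52.5 to 63.2 with IgG for ILMN_2817864. The ubiquitous mitochondrial kinase Ckmt1 was not above background anywhere (0 of 16 arrays), its signals running from 47.6 to 72.5 and its detection p-values from 0.169 to 0.89, and no comparison was made for it.

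Myoglobin gave the widest range of signals among the members. With ILMN_2954987 the signals were 4309, 3196.5, 2683 and 2707 in DM with anti-MYF5 and 8596, 7346, 6328 and 7759 in DM with IgG, against 77, 74.2, 79 and 75.2 in GM with anti-MYF5 and 91.9, 81, 77.7 and 75.6 in GM with IgG. This probe was detected on 1 of the 4 anti-MYF5 arrays and on all 4 IgG arrays in GM, close to the background in both. With ILMN_1234662 the signals were 910.4, 805, 676 and 919 in DM with anti-MYF5 and 2479, 2069, 1746 and 2234 in DM with IgG, against 63.2 to 70.9 in GM with anti-MYF5 and 63 to 77.1 in GM with IgG, both undetected. Both probes placed the DM arrays with IgG highest, the DM arrays with anti-MYF5 below them without overlap, and all GM arrays far lower.

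**Figure D1:**
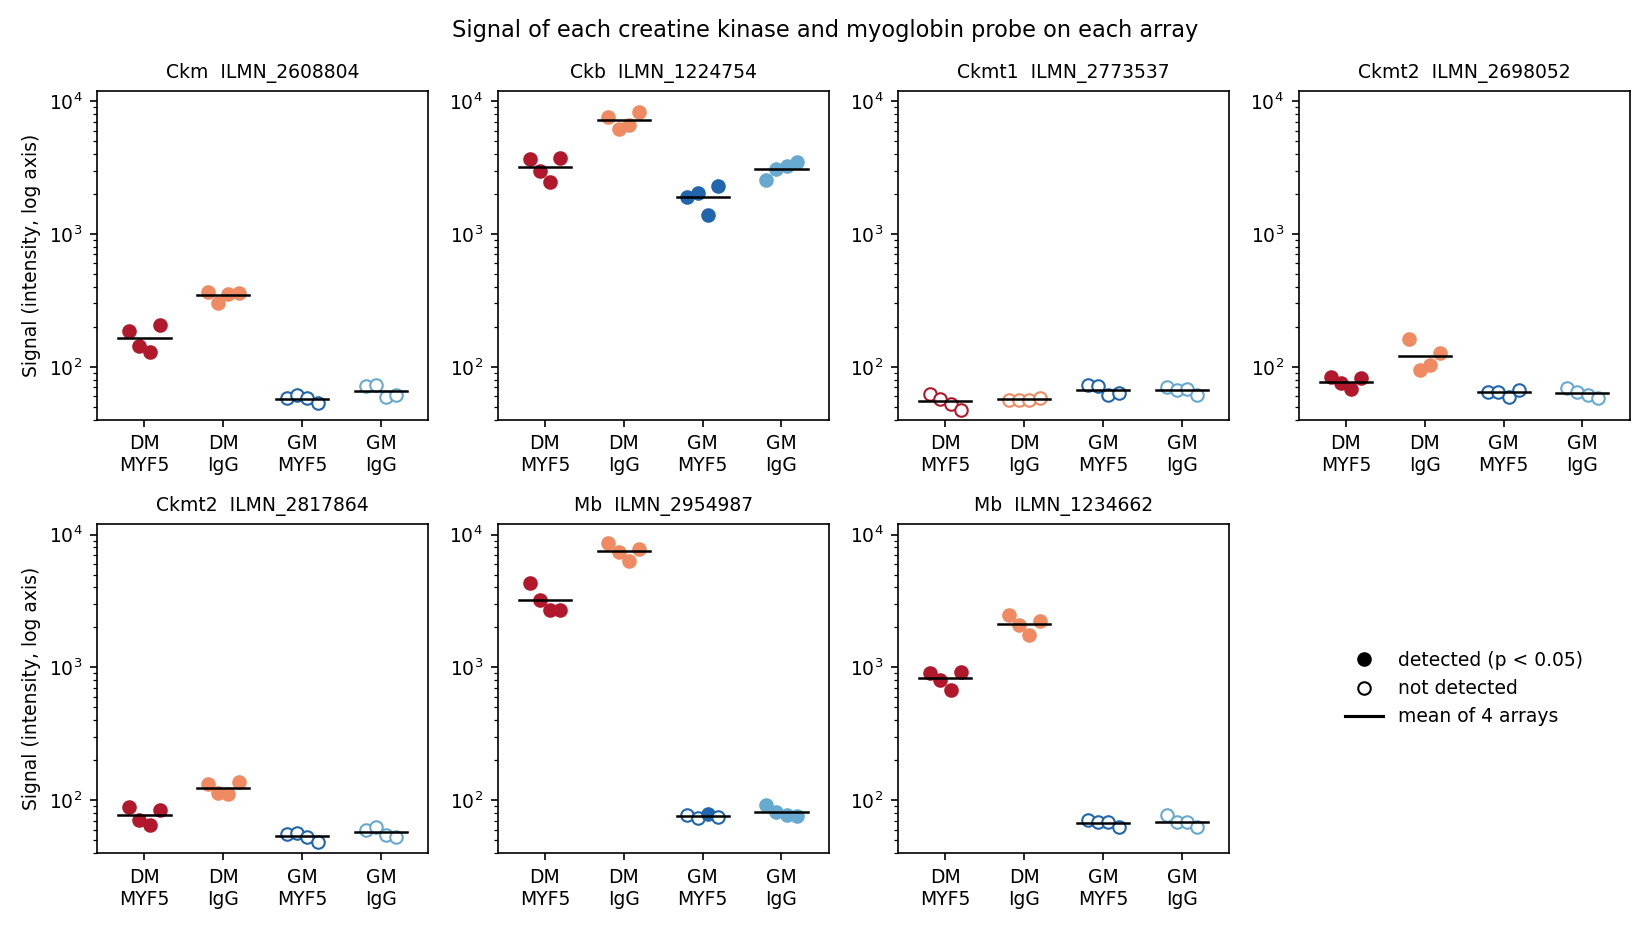
Signal of each of the 7 probes on each of 16 arrays (intensity, log axis), by group, with filled points detected and open points not detected at a detection p-value under 0.05, and lines at the mean of 4 arrays. Ckm and Mb stand above their GM arrays in DM, Ckmt2 is detected in DM only, with 1 of its probes reaching the level of GM arrays, Ckb is high in every group, Ckmt1 is not detected anywhere, and in DM the anti-MYF5 arrays lie below the IgG arrays for every detected probe.

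The change between media asks how precipitated RNA differed between differentiating and growing cells. Myoglobin, Ckm and Ckmt2 RNA were detected in DM and were at or near the background in GM, and Ckb RNA was 2.02-fold higher in DM with anti-MYF5 and 2.07-fold higher with IgG. Fewer expressing cells, less RNA per cell and a different recovery in the precipitate cannot be told apart here. These are therefore changes of the RNA precipitated from bulk cultures. Ckm, both Ckmt2 probes and Mb ILMN_1234662 passed the filter on dim probes only through their DM arrays, so that they had to differ here, and they are described without a count. Among all 13884 probes tested, 27.7% were called higher in DM than in GM with anti-MYF5 and 28.7% with IgG, where 34.1% were called lower (limma, Benjamini-Hochberg adjusted p under 0.05).

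The folds that follow are on the background-corrected, normalized scale, and the ratios of mean signals, which include the background, were smaller for Mb and Ckm. Mb ILMN_2954987 was at least 111-fold higher in DM than in GM with anti-MYF5, where 1 of 4 GM arrays detected it, and 210-fold higher with IgG (log2 change 7.71, SE 0.13, limma adjusted p = 2.3e-21), where all 4 did, close to the background. Its mean signals gave ratios of 42.2 with anti-MYF5 and 92.1 with IgG. A bound takes, for each GM array, the dimmest signal that counted as detected there, or the probe's own where that was higher. For its second probe, ILMN_1234662, the bounds were 27.5-fold with anti-MYF5 and 68.7-fold with IgG, and the ratios of mean signals 12.2 with anti-MYF5 and 30.8 with IgG. Ckm had bounds of 4.07-fold with anti-MYF5 and 9.65-fold with IgG, and ratios of 2.87 with anti-MYF5 and 5.21 with IgG. For Ckmt2 ILMN_2698052 the bounds were 1.18-fold with anti-MYF5 and 2.32-fold with IgG, beside ratios of 1.21 with anti-MYF5 and 1.92 with IgG. For Ckmt2 ILMN_2817864 they were 1.17-fold with anti-MYF5 and 2.47-fold with IgG, beside ratios of 1.44 with anti-MYF5 and 2.14 with IgG. These bounds depend on the background correction and are not limits on the uncorrected signals.

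Ckb, detected in both media, was 2.02-fold higher in DM with anti-MYF5 (log2 change 1.02, SE 0.17, limma adjusted p = 3.1e-05) and 2.07-fold higher with IgG (log2 change 1.05, SE 0.17, limma adjusted p = 2e-05). Its groups did not overlap in either precipitate, as for 24.9% of tested probes with higher values in DM with anti-MYF5 and 24.8% with IgG. For the probes near the background in GM the size of the change depended on the background correction. Without it, Mb ILMN_2954987 was 5.25 higher on the log2 scale with anti-MYF5 and 6.24 with IgG and, on the same scale, Mb ILMN_1234662 was 3.44 higher with anti-MYF5 and 4.75 with IgG, and Ckm 1.36 higher with anti-MYF5 and 2.21 with IgG.

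**Figure D2:**
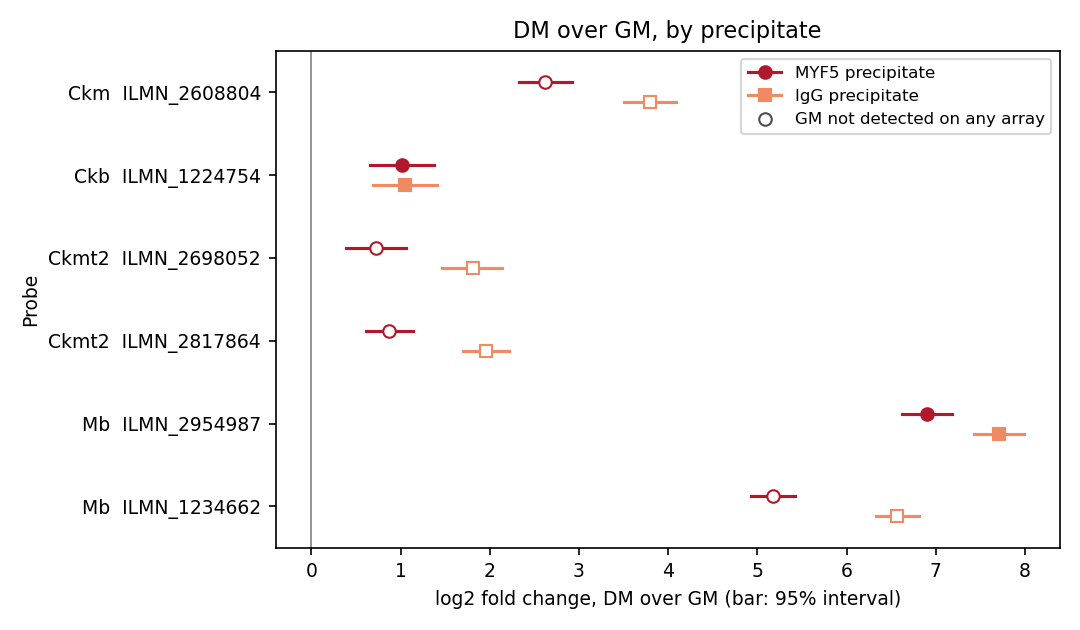
Log2 fold change of DM over GM for the 6 tested probes, in the anti-MYF5 and in the IgG precipitate, with 95% intervals from limma; open points mark probes that no GM array of that precipitate detected, whose fitted values are not measured folds, and Mb ILMN_2954987 was detected on 1 of 4 GM arrays with anti-MYF5. Every point lies above 0, and Ckb lies near 1 in both precipitates.

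The comparison of anti-MYF5 with IgG asks which RNAs the MYF5 antibody recovered beyond control beads, relative to the rest of the RNA. In DM all members measured were lower with anti-MYF5 on that relative scale. In differentiation medium 6 of the 6 tested probes were lower with anti-MYF5 than with IgG, by 1.99-fold to 2.54-fold, where 26.2% of all tested probes were called lower and 26.8% higher. Ckm was 2.41-fold lower (log2 change -1.27, SE 0.14, limma adjusted p = 2.8e-07) and Ckb 2.10-fold lower (log2 change -1.07, SE 0.17, limma adjusted p = 2.6e-05). Ckmt2 was lower by both probes, with log2 changes of -0.99 (SE 0.16, limma adjusted p = 2.2e-05) for ILMN_2698052 and -1.10 (SE 0.13, limma adjusted p = 4e-07) for ILMN_2817864. Mb had a log2 change of -1.13 (SE 0.13, limma adjusted p = 5.9e-07) for ILMN_2954987 and -1.35 (SE 0.12, limma adjusted p = 1.6e-08) for ILMN_1234662. For each of these 6 probes all 4 anti-MYF5 arrays lay below all 4 IgG arrays (exact two-sided permutation p = 0.0286, the smallest that 4 against 4 arrays allow), as was so for 24.6% of all tested probes.

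Within the distribution of all tested probes, 1.35% had a lower log2 change in DM than Mb ILMN_1234662, 2.01% a lower one than Ckm, 3.6% than Mb ILMN_2954987, 4.08% and 4.50% than Ckmt2 ILMN_2817864 and Ckb, and 5.77% than Ckmt2 ILMN_2698052. The size of this change was not shown to differ between the probes that were paired. Over 8 pairs of probes, the log2 difference within each array was compared between anti-MYF5 and IgG, and the members' changes differed by -0.28 to 0.22, with the 2 groups overlapping in every pair (exact permutation p of 0.0857 to 0.8, 0.572 to 0.8 after Benjamini-Hochberg adjustment over the 8 pairs). The pairs were those among the probes of highest mean level of Ckm, Ckb, Ckmt2 and Mb, the 2 probes of Ckmt2 and the 2 of Mb. The second probes of Ckmt2 and Mb were not paired with other genes. Mb ILMN_1234662 and Ckmt2 ILMN_2698052, which had the largest and the smallest change, were therefore not compared. The smallest exact p that 4 against 4 arrays allow is 0.0286, so 1 pair alone could not have passed this adjustment. Several pairs would have had to reach that p together. A p above the threshold does not show that the changes were equal. The size for Ckmt2 moved with the background correction, to -0.45 and -0.50 without it for ILMN_2698052 and ILMN_2817864, both still called.

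**Figure D3:**
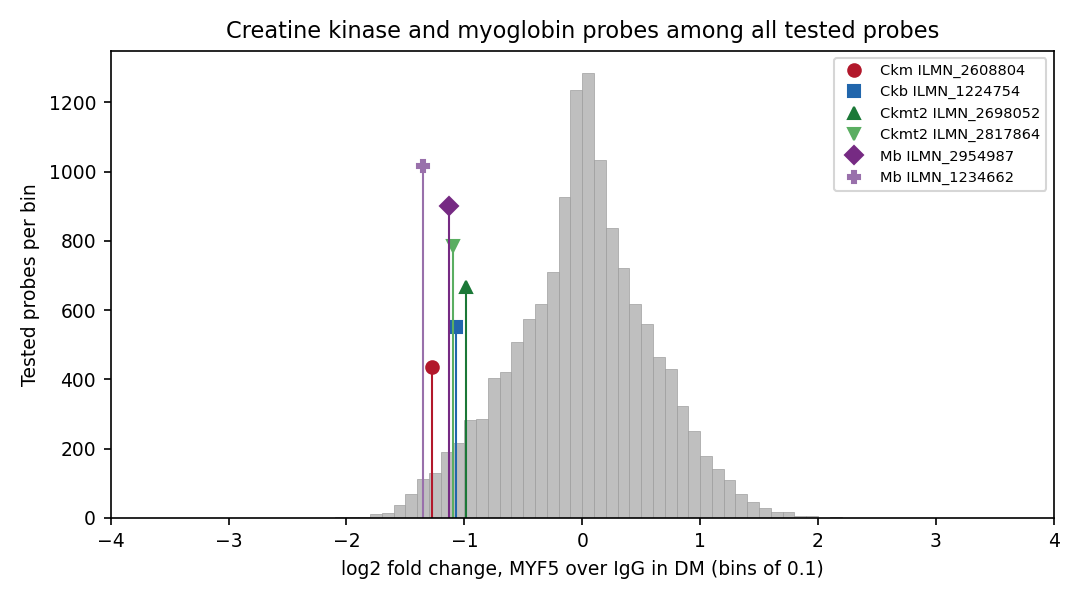
Number of tested probes (of 13884) per bin of 0.1 in log2 fold change, anti-MYF5 over IgG in DM (grey bars), with the 6 tested creatine kinase and myoglobin probes at their own values; the height of their markers has no meaning. All 6 lie between -1.35 and -0.99, in the lower tail.

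Other measures moved with this comparison. Of the 9 myotube markers tested, 4 were called lower and 0 higher with anti-MYF5 than with IgG in DM. Over all tested probes 26.2% were called lower there and 26.8% higher. The markers had a median log2 change of -0.59 against 0.02 over all genes, and their summed signals did not overlap. Those sums are of signals before normalization. The brightest genes in them, Acta1, Mylpf and Des, were not called, with log2 changes of 0.03, -0.59 and -0.33. The Actb probes share a gene symbol, and where they lie on its transcripts was not worked out. The log2 gap between those of highest and lowest mean signal was 2.60 ± 0.76 in DM with anti-MYF5 and 4.72 ± 0.81 in DM with IgG (SD, n = 4 each). In GM it was 3.93 ± 0.52 with anti-MYF5 and 6.41 ± 1.54 with IgG. With this gap as a covariate, a fit chosen after the data had been seen, the changes in DM were -1.17 for Ckm, -1.35 for Ckb, -0.77 and -0.91 for Ckmt2 (ILMN_2698052 and ILMN_2817864), and -1.21 and -1.29 for Mb (ILMN_2954987 and ILMN_1234662), and all 6 were still called. In DM the gap did not overlap between the precipitates (1.75 to 3.41 with anti-MYF5, 3.84 to 5.61 with IgG). The fit therefore could not separate the gap from the antibody there, and nothing is read from it. The part of the myotube RNAs in the result was not tested.

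In growth medium the comparison could be made for Ckb and, near its detection limit, for Mb. Ckb was 2.05-fold lower with anti-MYF5 than with IgG (log2 change -1.04, SE 0.17, limma adjusted p = 4.1e-05), with no overlap between the groups (exact permutation p = 0.0286), where 22.1% of tested probes were called lower, 26.7% higher, and 18.6% were lower without overlap. Mb ILMN_2954987 had a log2 change of -0.31 (95% interval -0.59 to -0.03, limma adjusted p = 0.059), its groups overlapped (exact permutation p = 0.143), and the difference did not pass the threshold. Ckm, Ckmt2 and Mb ILMN_1234662 were undetected in both GM groups and no fold is given for them. Array scaling moved the median change of all tested probes in GM to 0.19 with median scaling and 0.32 with no scaling, against 0.04 with quantile normalization. Relative to those medians the Ckb change in GM was -1.05 in both, and -1.07 with quantile normalization.

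The difference between media in the anti-MYF5 over IgG change was tested as an interaction. For Ckb it was -0.03 on the log2 scale (DM minus GM, SE 0.25, 95% interval -0.54 to 0.48, limma adjusted p = 0.96), so that the Ckb decrease was not shown to differ between the media, and differences up to the ends of that interval were not excluded. For Mb ILMN_2954987 it was -0.82 (SE 0.19, limma adjusted p = 0.015), where 3.36% of tested probes were called in that direction. Its GM side was close to the background, with 1 of 4 anti-MYF5 arrays and 4 of 4 IgG arrays detecting it, so a decrease of the size seen in DM could not have shown in GM, and the value is not read as a difference between media. The call was lost with cyclic loess scaling, where the difference was -0.67 (limma adjusted p = 0.14). The model also gave differences of -1.17 for Ckm, -1.08 for each Ckmt2 probe and -1.40 for Mb ILMN_1234662, with limma adjusted p of 0.0079 or less. Because these probes were undetected in both GM groups, the GM side was not measured and these values are not given as a difference between media. That decision was made after the values had been seen.

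**Figure D4:**
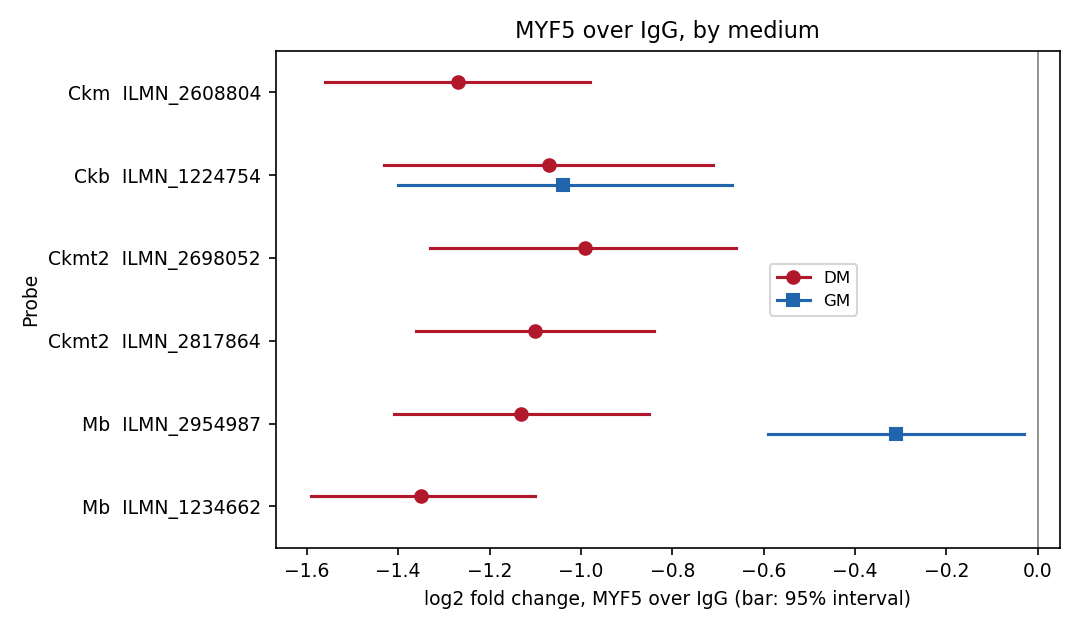
Log2 fold change of anti-MYF5 over IgG in DM (circles) and GM (squares), with 95% intervals from limma, for each tested probe; GM points are drawn only where at least 1 GM array detected the probe. The DM points lie between -1.35 and -0.99, Ckb has nearly the same value in both media, and the Mb ILMN_2954987 value in GM lies nearer 0.

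Genes around the creatine and oxygen systems were counted by list in the same comparison, DM with anti-MYF5 over DM with IgG, beside a median log2 change of 0.02 over all genes and shares of 26.2% called lower and 26.8% called higher over all tested probes. Nothing is read from list counts near those shares. Among the 3 genes of creatine synthesis and uptake, 1 was lower and 1 higher (median -0.36). Gamt, which makes creatine from guanidinoacetate, had a mean signal of 669 ± 103 with anti-MYF5 and 1301 ± 33.7 with IgG (log2 change -0.96, SE 0.22, limma adjusted p = 0.00078). Slc6a8, the creatine transporter, was called higher (log2 change 0.31, limma adjusted p = 0.049), a call lost under each of the 3 other scalings. Gatm, which makes guanidinoacetate, had a log2 change of -0.36 that did not pass the test (limma adjusted p = 0.086).

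Of 5 tested mitochondrial carriers and channels, through which ATP, ADP and phosphate cross the mitochondrial membranes, 3 were lower and 0 higher (median -0.31). They included the adenine nucleotide carrier Slc25a5, with signals of 3764 ± 800 with anti-MYF5 and 7405 ± 1380 with IgG (log2 change -0.89, limma adjusted p = 3.3e-05), and the outer membrane channel Vdac3 (log2 change -0.66, limma adjusted p = 2.9e-05). Of 10 tested adenylate kinases, nucleoside diphosphate kinases and AMP deaminases, 5 were lower and 3 higher (median -0.27). The nucleoside diphosphate kinase Nme2 had signals of 2871 ± 724 with anti-MYF5 and 7078 ± 604 with IgG (log2 change -1.24, limma adjusted p = 8.4e-07). Ampd1, the AMP deaminase of skeletal muscle, and the mitochondrial adenylate kinase Ak4 shared the next largest size, in opposite directions, with log2 changes of -0.94 (limma adjusted p = 9.2e-06) and 0.94 (limma adjusted p = 2.6e-05).

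Both tested M-band genes were lower (median -1.08), Myom1 with signals of 723 ± 170 with anti-MYF5 and 1695 ± 279 with IgG (log2 change -1.23, limma adjusted p = 7.9e-08) and Obsl1 with a log2 change of -0.93 (limma adjusted p = 5.5e-06). Of 7 tested genes of haem synthesis, the pathway that makes the prosthetic group of myoglobin, 4 were lower and 2 higher (median -0.75). Urod had signals of 1525 ± 363 with anti-MYF5 and 3789 ± 596 with IgG (log2 change -1.31, limma adjusted p = 3.8e-08), and Alad a log2 change of -1.03 (limma adjusted p = 1.1e-08). Of the other globins, Hba-a1 and Ngb could be tested, with log2 changes of -0.59 and -0.15, and neither was called. Both were close to the background in DM. Hba-a1 was detected there on 0 of 4 anti-MYF5 arrays and 3 of 4 IgG arrays. Ngb was detected on 0 of 4 anti-MYF5 arrays and 1 of 4 IgG arrays. Their values are not read as measured changes. Among 7 regulators of mitochondrial biogenesis and oxidative fibres, 0 were lower and 4 higher (median 0.37), with Esrra, an orphan nuclear receptor, at 1257 ± 211 with anti-MYF5 and 797.9 ± 43.3 with IgG (log2 change 0.76, limma adjusted p = 4e-06) and Nfatc1, a calcineurin-regulated factor, at a log2 change of 0.60 (limma adjusted p = 0.00072). With median scaling or no scaling the calls of a higher level fell to 1 among the kinases and deaminases, 0 in haem synthesis and 2 among the regulators.

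**Figure D5:**
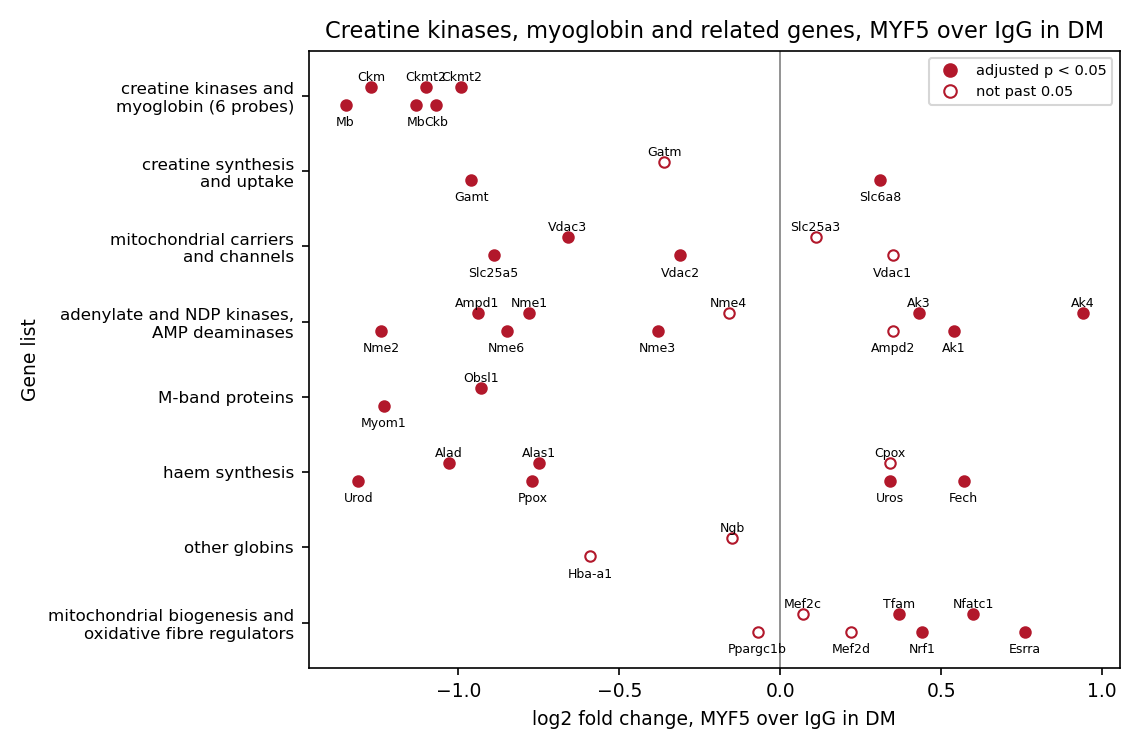
Log2 fold change of anti-MYF5 over IgG in DM for the 6 tested creatine kinase and myoglobin probes and for every tested gene of 7 related lists, filled where the limma adjusted p was under 0.05. The 6 probes and both M-band genes lie at or below -0.93, and the remaining lists except the other globins hold values on either side of 0. Both other globins, close to the background in DM, are below 0 and not called.

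In GM the median change was 0.04 over all genes, and 22.1% of all tested probes were called lower and 26.7% higher. Nothing is read from list counts near those shares. The same lists gave 2 lower and 0 higher for creatine synthesis and uptake (median -0.70), 3 lower and 0 higher for the carriers and channels (median -0.48), and 4 lower and 3 higher for the kinases and deaminases (median -0.06). They gave 1 lower and 0 higher for the M-band genes (median -0.35), 3 lower and 2 higher for haem synthesis (median -0.14), 1 lower and 0 higher for the other globins (median -1.21), and 0 lower and 3 higher for the regulators (median 0.22). The medians of haem synthesis and of the kinases and deaminases turned positive with median scaling (0.12 and 0.03) and with no scaling (0.25 and 0.16). Between media in the IgG precipitate, where the median over all genes was -0.06, both M-band genes were higher in DM, and the counts of higher and lower were 1 and 1 for creatine synthesis and uptake, 0 and 2 for the carriers and channels, 3 and 5 for the kinases and deaminases, 2 and 1 for haem synthesis, 0 and 1 for the other globins, and 1 and 3 for the regulators. Over all tested probes 28.7% were called higher there and 34.1% lower. Myom1 and Ampd1, both called higher, were detected on no GM array. They passed the filter on dim probes only through their DM arrays and had to differ. The 1 regulator higher in DM was Mef2c, a partner of myogenic factors, with a log2 change of 6.24 (limma adjusted p = 1e-20).

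The genes whose normalized log2 levels followed each member most closely over the 16 arrays were, for Ckm, the myosin light chain Myl2 (r = 0.998), the myosin-binding protein Mybpc1 and the small heat shock protein Hspb3. For Mb they were the myosin heavy chain Myh1 (r = 0.9984), the muscle LIM protein Csrp3 and the myosin heavy chain Myh8. For Ckmt2 they were the proteoglycan Lum (r = 0.9861), Eepd1 and Crym, and for Ckb they were Cdk5rap3 (r = 0.9875), Haghl and Flii, an actin-binding protein of the gelsolin family. Each member was compared with 9428 other genes. Among the members, r over the same arrays was 0.98 for Ckm with Mb, 0.937 for Ckm with Ckmt2, 0.88 for Ckmt2 with Mb, and 0.725 to 0.791 for Ckb with the others. The 16 arrays share their 4 groups. In GM the probes of Ckm and Ckmt2 used here were detected on no array, and that of Mb was close to the background. Their high r values can therefore be set largely by the contrast between DM and GM. All these values are a description only.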

How the data were processed

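RNA from 16 immunoprecipitates was measured on Illumina bead arrays, in 4 groups of 4 taken from the sample titles. Per the file headers, the deposited table holds 25697 probes with, per array, their intensity and their detection p-value; GenomeStudio 2011.1 made them, per the submitters' processing notes, without normalization between arrays. The deposited series values are a score that equals the z-score of the log10 signal within an array, to within 5e-10, and served as an alternative. Array slides are not given in the sources used here.

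Intensities were background-corrected with normexp (controls inferred from the detection p-values, offset 16), quantile-normalized and put on the log2 scale (limma 3.58.1, R 4.3.3). The 13884 probes with a detection p-value below 0.05 on 4 or more of the 16 arrays were tested. One linear model with 4 group means and 12 residual degrees of freedom gave all 5 comparisons (lmFit, eBayes with intensity trend; Benjamini-Hochberg over all tested probes, threshold 0.05). Exact two-sided permutation tests were run on single probes. The model was tested on simulated data. Quantile normalization gives all arrays one distribution, so changes are relative to the rest of the RNA. The number of arrays limits the precision.

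Symbols came from the platform annotation, updated with RefSeq names by Entrez identifier for 23962 probes and by accession for 9, while 7 kept theirs; 23978 probes had 1 symbol, 0 several and 1719 none. A gene stands by its probe of highest mean log2 level; all probes of the members are given. In each list at most 2 called genes with the largest change are named by rule; Gatm, Hba-a1, Ngb and 1 of the tied pair Ampd1 and Ak4 fall outside that rule and were named after their values were seen. The 3 most correlated genes are given per member. The members and lists were chosen with earlier results of these data known. Alternatives covered the background correction, offset, scaling, filter, samples in the fit, variance trend, deposited scores, replicate block and each left-out array. The Actb covariate, the bound for Mb ILMN_2954987, the fit without both GM arrays numbered 4, and leaving out members undetected in both compared groups were chosen after the data had been seen.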

Additional observations from a re-analysis of the deposited data

Results flagged for a closer look

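Ckb stood apart in GM on the arrays of replicate 4 of both precipitates. With anti-MYF5 the replicate 4 level was 11.10 on the normalized log2 scale, against 10.50 to 10.53 on the other 3 arrays, a gap of 0.938 of the group's range. With IgG the replicate 4 level was 12.35, against 11.44 to 11.55, a gap of 0.88 of the range. Of 16 groups checked these 2 had a gap beyond Dixon's critical value for 4 samples, which chance exceeds in about 1 of 20 groups. The Ckb signals of these arrays, 2291 and 3474, were also the highest of their groups, but closer to the others. Without both arrays, a fit chosen after the data had been seen, the Ckb change of anti-MYF5 over IgG in GM was -0.97, and DM over GM was 1.16 with anti-MYF5 and 1.27 with IgG.

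The anti-MYF5 over IgG change of Mb ILMN_2954987 differed between media by -0.82 on the log2 scale (DM minus GM, limma adjusted p = 0.015), with changes of -1.13 in DM and -0.31 in GM. In GM the probe was detected on 1 of 4 anti-MYF5 arrays and on 4 of 4 IgG arrays, near the background, so that a decrease as large as in DM could not have shown. With the Actb gap as a covariate the difference was -0.80.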

How the results depend on the processing

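The 22 changes of single probes given above were recomputed in 476 alternative fits, of which 461 kept the direction and the side of the threshold. Mb ILMN_2954987 in GM passed the threshold with cyclic loess (-0.51, limma adjusted p = 0.026) and with the replicate block (-0.31, limma adjusted p = 0.05), and lay between -0.40 and -0.20 with 1 array left out, called without GM IgG replicate 2 (-0.37), GM IgG replicate 3 (-0.40) or GM MYF5 replicate 3 (-0.39), but it shrank to -0.12 without background correction and to -0.07 with no scaling (limma adjusted p = 0.8). Its DM minus GM difference lost its call with cyclic loess (-0.67, limma adjusted p = 0.14). The Ckb DM minus GM difference, never called, changed sign with the Actb covariate (0.02) and the deposited z-scores (0.08), and ran from -0.25 to 0.11 with 1 array left out. Over all alternatives but the z-scores it ran from -0.46 to 0.11. The median difference of all tested probes moved to -0.27 with median scaling and -0.38 with no scaling. Relative to those medians the Ckb difference was -0.07 in both, and -0.03 with quantile normalization. The cause of these shifts was not tested. Of 2352 alternative values for lists, 190 moved beyond their limits (over 1.5 times for a count). Counts over all probes moved with scaling. With median scaling and no scaling, probes lower in DM with IgG numbered 2959 and 2162 (4741 with quantile normalization), and probes higher with anti-MYF5 in DM 2406 and 2177 (3714). In GM, probes higher with anti-MYF5 numbered 5588 with no scaling (3704), and lower ones 1637 and 1121 (3071). For the DM minus GM difference, 319 probes were higher and 466 lower. Higher calls numbered 71 with median scaling, 39 with no scaling, 186 with no filter, 499 with the replicate block, 562 with the Actb covariate, 660 without both GM arrays numbered 4 and 163 to 595 with 1 array left out, with the highest without GM IgG replicate 4. Lower calls numbered 839 with median scaling, 1140 with no scaling, 972 with the z-scores, 721 with the Actb covariate, 799 without both GM arrays numbered 4 and 263 to 763 with 1 array left out, with the highest again without GM IgG replicate 4. Samples of one number correlated in their deviations from group means at r of 0.02 to 0.419 in DM, 0.011 to 0.606 in GM and -0.229 to 0.286 between media. Within DM, an anti-MYF5 array correlated best with the IgG array of its own number for numbers 1, 2 and 4. Within GM this held for numbers 2 and 4. Between media it held for number 1 in every pair of groups, and for number 3 with DM IgG. Whether the numbers pair samples was not settled, and the main model treats the arrays as unpaired, with the replicate block as an alternative. Background limits the probes of Ckm, Ckmt2 and Mb in GM, where folds are bounds, absent or, for Mb ILMN_2954987, taken close to the background.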
